A study of Homo sapiens with 4 samples.

Results

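Mediator is the large protein complex that links DNA-bound transcription factors to RNA polymerase II, and its genes were taken as every protein-coding symbol made of MED, a number and an optional L, together with CDK8, CDK19 and CCNC. The rule used symbols and no measured value, and it found 33 genes among the 64252 genes of the count table. NB4 is a human line from acute promyelocytic leukemia, in which PML is fused to RARA. Cells labelled NB4 received 8 μM dBET1 for 24 h (2 libraries) or the same volume of its solvent DMSO for 24 h (2 libraries), with no genetic change named in the labels for either group. dBET1 is a degrader that joins a ligand of BET bromodomains to a ligand of the ubiquitin ligase adaptor cereblon.

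Mediator is described in modules. The head and the middle contact RNA polymerase II and the general transcription factors, the tail receives most of the contacts from gene-specific activators, MED14 runs through the complex as its scaffold, and the kinase module of a cyclin-dependent kinase, cyclin C, MED12 and MED13 joins reversibly and blocks polymerase binding while it is attached. In leukemia cells Mediator is known for its presence at the enhancers of lineage and growth genes. The head genes here were MED6, MED8, MED11, MED17, MED18, MED19, MED20 and MED22, and the middle genes were MED1, MED4, MED7, MED9, MED10, MED21, MED26 and MED31. The tail genes were MED15, MED16, MED23, MED24 and MED25. MED27, MED28, MED29 and MED30 lie where head and tail meet and are placed in either by different accounts, so they were kept as a group of 4.

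Total counts per library ranged from 28019956 to 34685645, and levels are given as CPM, a gene's counts relative to its library's total after scaling with TMM factors. The 6 markers of neutrophil granules and promyelocytes held 53 and 32 counts in DMSO and 66 and 38 counts with dBET1, with ELANE and CTSG at 0 in all 4 libraries. The 10 erythroid markers summed to 6383 and 7727 CPM in DMSO and to 3782 and 3692 CPM with dBET1, none of them at 0 throughout, so the marker genes went against the promyelocytic label. The 3 megakaryocytic markers summed to 2.11 and 2.63 CPM in DMSO and to 4.13 and 4.55 CPM with dBET1, with PF4 at 0 in all 4 libraries. The part of the erythroid decrease in the changes of Mediator genes was not tested, and fewer cells of a type and less RNA per cell cannot be told apart in bulk RNA.

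With dBET1 the Mediator genes moved in both directions and mostly by less than 2-fold. At an adjusted p under 0.05 in edgeR's quasi-likelihood test, 3 of the 32 tested genes were higher (9.38%, against 28.0% of all 17971 tested genes) and 12 were lower (37.5%, against 27.6% of all tested genes), while 17 did not pass the test. The higher genes were MED7, MED15 and CDK19. The lower genes were CCNC, MED1, MED4, MED8, MED9, MED10, MED11, MED17, MED22, MED24, MED26 and MED27. Beyond a log2 change of 1 in addition, MED7 and CDK19 were higher (6.25%, against 16.9% of all tested genes) and MED11 alone was lower (3.12%, against 8.54%). The median log2 change was -0.12 over the tested Mediator genes beside 0.048 over all tested genes, and it turned to 0.092 beside 0.257 when libraries were scaled by total counts only. That scaling gave 11 higher Mediator genes (34.4%, against 37.3% of all genes tested) and 7 lower (21.9%, against 19.9%), and raised the higher share of all calls from 50.4% to 65.2%. In a fit of protein-coding genes only, 7 Mediator genes were higher (21.9%, against 31.7%) and 10 lower (31.2%, against 31.6%). Without DMSO replicate 1 there were 10 higher (30.3%, against 26.5%) and 13 lower (39.4%, against 27.3%), and without dBET1 replicate 1 there were 2 higher (6.06%, against 18.3%) and 6 lower (18.2%, against 20.2%). With DESeq2, 4 were higher (12.5%, against 22.1%) and 12 lower (37.5%, against 26.1%). The higher share lay below that of all genes in every fit tried except the one without DMSO replicate 1. The lower share lay above that of all genes except with protein-coding genes only and without dBET1 replicate 1. The size of these differences depended on the fit and was not tested.

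**Figure D1:**
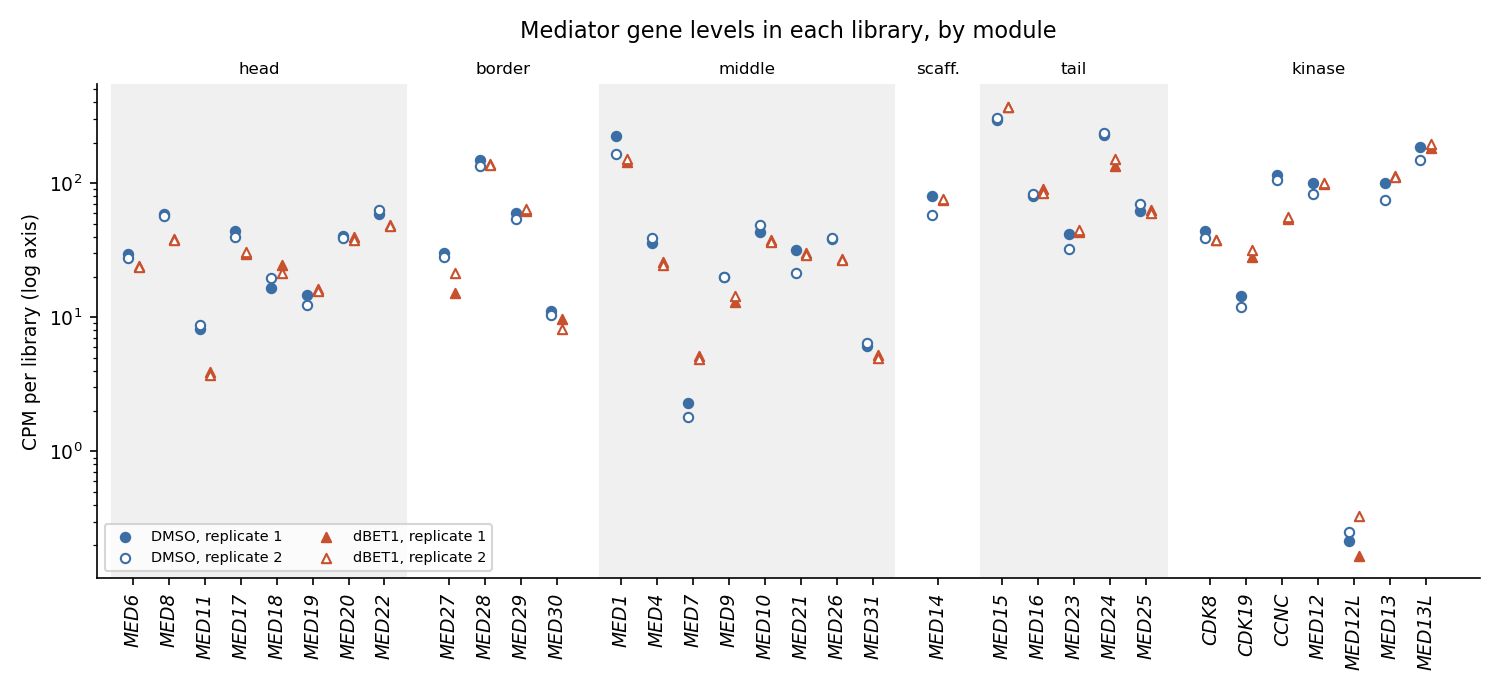
CPM of each Mediator gene in every library on a log axis, grouped by module; blue circles are DMSO and red triangles dBET1, filled for replicate 1 and open for replicate 2. The levels run from 0.167 CPM of MED12L to 373 CPM of MED15, and the groups lie farthest apart for MED7, CDK19, MED11 and CCNC.

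Module by module, counts can be read beside the 28.0% higher and 27.6% lower of all tested genes. In the head 4 of 8 genes were lower and 0 higher, with a median log2 change of -0.30, and the summed level of the head was 271 and 267 CPM in DMSO and 225 and 219 CPM with dBET1. In the middle 5 of 8 genes were lower and 1 was higher, with a median of -0.35 and summed levels of 401 and 342 CPM in DMSO and 288 and 294 CPM with dBET1. The summed level of the head and that of the middle were lower in both dBET1 libraries than in either DMSO library. In the middle this order rested on the TMM factors, 0.9415 and 0.9182 in DMSO and 1.073 and 1.078 with dBET1, and is lost without them. The middle sum includes MED1, its most abundant gene, at 224 and 165 CPM in DMSO and 144 and 152 CPM with dBET1. In the tail 1 gene was lower and 1 higher of 5, with a median of 0.10 and summed levels of 707 and 725 CPM in DMSO and 702 and 712 CPM with dBET1. In the kinase module 1 gene was lower and 1 higher of the 6 tested, with a median of 0.15 and summed levels of 562 and 461 CPM in DMSO and 513 and 532 CPM with dBET1. The groups overlapped in the summed levels of tail and kinase module. The difference between modules was not tested. With total counts only, where the median of all tested genes was 0.257, the module medians were -0.088 in the head, -0.14 in the middle, 0.31 in the tail and 0.35 in the kinase module, and without DMSO replicate 2 the kinase median was -0.032. Counting MED27 to MED30 with the tail gave a median of -0.025 and 2 lower genes of 9, and counting them with the head gave a median of -0.25 and 5 lower genes of 12.

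**Figure D2:**
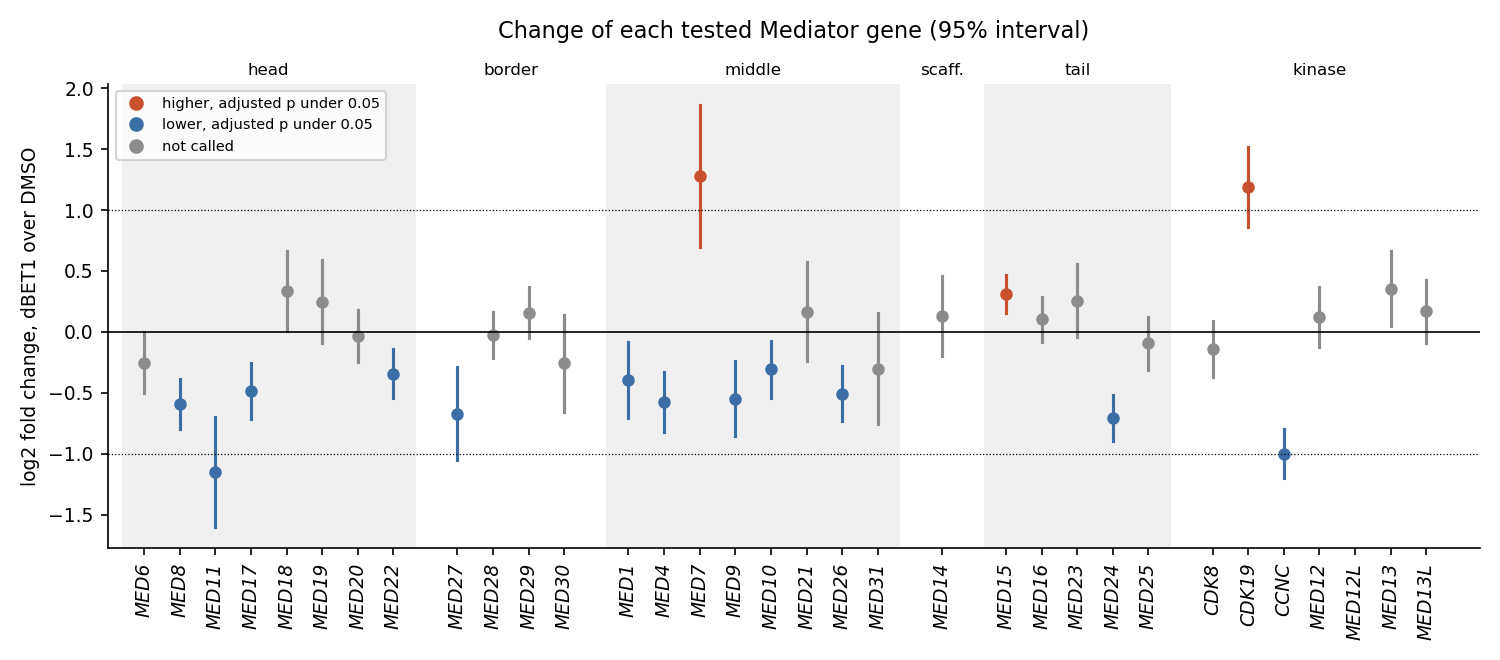
Log2 fold change of each tested Mediator gene, dBET1 over DMSO, with its 95% interval, grouped by module; red marks genes higher and blue genes lower at an adjusted p under 0.05, and grey genes did not pass. The points run from -1.15 for MED11 to 1.28 for MED7, and 4 of the 8 head genes and 5 of the 8 middle genes are blue.

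The kinase module held the gene with the smallest adjusted p. CCNC encodes cyclin C, the cyclin that activates CDK8 or CDK19, and lies at chr6:99542387-99568825 on the minus strand (hg38, GENCODE 44). Its level was 115 and 105 CPM in DMSO and 54.4 and 55.8 CPM with dBET1. Both treated libraries were far below both controls. The log2 fold change was -0.999 (SE 0.0864, adjusted p = 6.7e-05, edgeR's quasi-likelihood test), just short of the 2-fold limit. CDK19, one of the paired kinases of the module, lies at chr6:110609978-110815958 on the minus strand and moved the other way. It was at 14.4 and 11.8 CPM in DMSO and at 28.3 and 31.6 CPM with dBET1, a rise of 1.19 on the log2 scale (SE 0.141, adjusted p = 0.000293, edgeR's quasi-likelihood test). All 4 libraries kept this order for CDK19, with no overlap of the groups. Groups did not overlap in 14247 of all 17971 tested genes and in 25 of the 32 tested Mediator genes, so such a separation was common here. CDK8, its close relative on chromosome 13, was at 43.9 and 39.0 CPM in DMSO and at 37.6 and 37.7 CPM with dBET1. Its log2 change of -0.14 did not pass the test (95% interval -0.37 to 0.091, adjusted p = 0.262, edgeR's quasi-likelihood test), and its sign turned when libraries were scaled by total counts only.

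Levels of different genes were compared per kilobase of exon. On that scale CDK19 made up 16.9% and 15.8% of the summed CDK8 and CDK19 level in DMSO and 31.8% and 34.2% with dBET1, a ratio within each library that the library's scale does not touch. The mean share was 16.4% ± 0.713 (SD, n = 2) in DMSO and 33.0% ± 1.69 (SD, n = 2) with dBET1. The difference was 16.7 percentage points, and both treated libraries were above both controls. An exact two-sided permutation test gave p = 0.333, the smallest value that 2 libraries against 2 can give. CDK8 remained the larger of the pair in all 4 libraries. The ratio of CCNC to the summed kinases, a comparison added after the values were seen, was 1.84 and 1.91 in DMSO and 0.834 and 0.823 with dBET1. Cyclin C mRNA per kilobase thus lay above the mRNA of its 2 kinases in both DMSO libraries and below it in both dBET1 libraries, on the union of exons. With the length of the longest transcript instead, the ratio was 3.14 and 3.26 in DMSO and 1.47 and 1.46 with dBET1, above 1 in all 4 libraries.

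**Figure D3:**
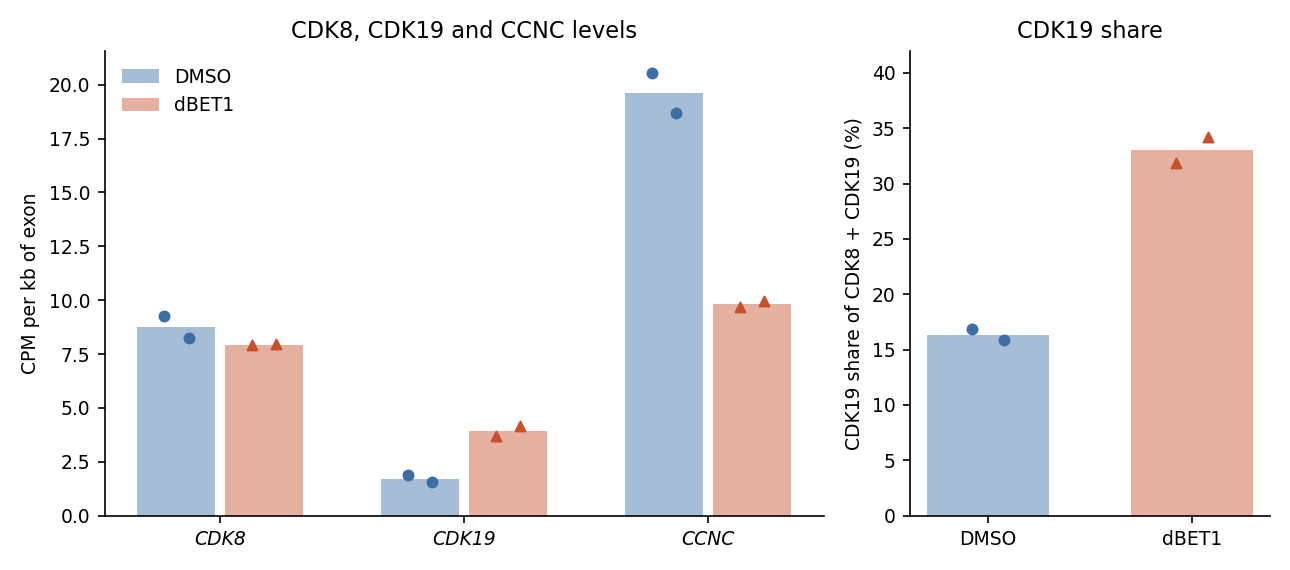
Left, CPM per kb of exon of CDK8, CDK19 and CCNC, with bars at the mean of 2 libraries per group and points at each library; right, the percent share of CDK19 in the summed CDK8 and CDK19 level of each library. The share is 16.9 and 15.8 in DMSO and 31.8 and 34.2 with dBET1.

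The kinase module is tied to the rest of Mediator through MED13 or its relative MED13L, and MED12 or MED12L activates the kinase with cyclin C. MED12 was at 101 and 82.4 CPM in DMSO and at 98.6 and 101 CPM with dBET1, so the groups overlapped. MED13 was at 100 and 74.5 CPM in DMSO and at 112 and 111 CPM with dBET1. Its log2 change of 0.35 fell just outside the threshold (95% interval 0.045 to 0.66, adjusted p = 0.0528, edgeR's quasi-likelihood test). The treated libraries were above both controls, but the controls differed more from each other than the nearer one did from the treated pair, and the gene was called higher in 7 of 12 alternative fits. MED13L was at 187 and 148 CPM in DMSO and at 182 and 195 CPM with dBET1, with a log2 change of 0.17 (95% interval -0.093 to 0.43). Its share of the summed MED13 and MED13L level per kilobase of exon was 41.8% and 43.4% in DMSO and 38.4% and 40.3% with dBET1, a difference of -3.23 points at p = 0.333 in the exact permutation test. With the longest transcript as the length, the share was 66.3% and 67.8% in DMSO and 63.1% and 64.9% with dBET1. Which gene of the pair was the larger thus depended on the length used. MED12L had 7 and 7 counts in DMSO and 5 and 10 counts with dBET1 and was not tested. No change of MED12L was detectable at this depth.

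In the head, MED11 fell the most. MED11 is a small subunit that pairs with MED22, and its gene lies at chr17:4731428-4733608 on the plus strand. It was at 8.15 and 8.82 CPM in DMSO and at 3.90 and 3.73 CPM with dBET1. The treated level was 45.0% of the control level (log2 change -1.15, SE 0.195, adjusted p = 0.00172, edgeR's quasi-likelihood test), with no overlap between groups. Its partner MED22 was at 59.2 and 62.9 CPM in DMSO and at 48.7 and 47.6 CPM with dBET1, a smaller decrease (log2 change -0.34, SE 0.0870, adjusted p = 0.0114, edgeR's quasi-likelihood test). The call on MED22 was lost with total-count scaling and without either dBET1 library.

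MED8 carries the MED18 and MED20 pair on the head. MED8 was at 58.5 and 56.4 CPM in DMSO and at 38.3 and 38.0 CPM with dBET1 (log2 change -0.59, SE 0.0870, adjusted p = 0.000879, edgeR's quasi-likelihood test). Neither gene of the pair it carries passed the test. MED18 was at 16.6 and 19.7 CPM in DMSO and at 24.5 and 21.3 CPM with dBET1, with a log2 change of 0.33 (95% interval 0.0046 to 0.66). MED20 was at 40.5 and 39.0 CPM in DMSO and at 39.8 and 38.0 CPM with dBET1, with a log2 change of -0.033 whose 95% interval ran from -0.25 to 0.18 and whose sign turned under total-count scaling. The MED20 groups overlapped. MED17, a central subunit on which the head is built, was at 43.8 and 40.0 CPM in DMSO and at 29.5 and 30.4 CPM with dBET1 (log2 change -0.48, SE 0.0996, adjusted p = 0.00439, edgeR's quasi-likelihood test). The MED17 call was lost with total-count scaling and without dBET1 replicate 1. MED6, which sits between head and middle, had a log2 change of -0.25 and MED19 one of 0.25, and neither passed the test.

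Where head and tail meet, MED27 was lower and MED28, MED29 and MED30 did not pass the test. MED27 was at 29.9 and 28.2 CPM in DMSO and at 15.3 and 21.3 CPM with dBET1. Both treated libraries were below the controls, but they also lay farther apart than those of any other tested Mediator gene in the dBET1 group. The log2 change was -0.67 (SE 0.164, adjusted p = 0.00975, edgeR's quasi-likelihood test) and -0.46 without dBET1 replicate 1, where the call was lost. MED28 was the most abundant of these by CPM, at 148 and 133 CPM in DMSO and 140 and 137 CPM with dBET1. Its groups overlapped, its log2 change was -0.025 with a 95% interval of -0.21 to 0.16, and the sign turned under total-count scaling. MED29 had a log2 change of 0.16 (95% interval -0.053 to 0.37) and MED30 one of -0.26 (95% interval -0.65 to 0.14).

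The middle module held both the largest rise and several decreases. MED7, the subunit that pairs with MED21 to form the hinge of the middle, lies at chr5:157137424-157159019 on the minus strand. It was at 2.30 and 1.81 CPM in DMSO and at 5.16 and 4.85 CPM with dBET1, from 75 and 51 counts and from 155 and 148 counts. The groups did not overlap, and the rise of 2.43-fold (log2 change 1.28, SE 0.251, adjusted p = 0.00352, edgeR's quasi-likelihood test) started from the lowest DMSO level among the tested Mediator genes. Its partner MED21 was at 31.6 and 21.4 CPM in DMSO and at 30.4 and 29.2 CPM with dBET1. The MED21 groups overlapped, and the log2 change of 0.17 did not pass the test (95% interval -0.24 to 0.57).

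MED4 and MED9 form the other pair of the middle, and both were lower. MED4 was at 35.7 and 39.3 CPM in DMSO and at 25.8 and 24.6 CPM with dBET1 (log2 change -0.57, SE 0.106, adjusted p = 0.00257, edgeR's quasi-likelihood test). MED9 was at 20.1 CPM in each DMSO library and at 13.0 and 14.5 CPM with dBET1 (log2 change -0.55, SE 0.132, adjusted p = 0.0089, edgeR's quasi-likelihood test). Neither gene's groups overlapped, and the MED9 call was lost with total-count scaling and without dBET1 replicate 1. MED26, the subunit that recruits elongation factors to the complex, was at 38.3 and 38.8 CPM in DMSO and at 27.4 and 26.8 CPM with dBET1 (log2 change -0.51, SE 0.0967, adjusted p = 0.00309, edgeR's quasi-likelihood test). Each group of MED26 was tight beside the distance between the groups.

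MED1, the subunit through which nuclear receptors contact Mediator, was at 224 and 165 CPM in DMSO and at 144 and 152 CPM with dBET1. The treated libraries were below both controls, while the controls themselves differed by 0.44 on the log2 scale. The log2 change of MED1 was -0.39 (SE 0.134, adjusted p = 0.0375, edgeR's quasi-likelihood test), -0.18 without DMSO replicate 1 and -0.63 without DMSO replicate 2. The MED1 call was kept in 6 of 12 alternative fits. MED10 was at 43.0 and 48.7 CPM in DMSO and at 37.4 and 36.6 CPM with dBET1 (log2 change -0.31, SE 0.100, adjusted p = 0.0319, edgeR's quasi-likelihood test), and its call was kept in 7 of 12 alternative fits. MED31 had a log2 change of -0.30 and did not pass the test. Of its exon bases 58.4% are shared with TXNDC17 on the opposite strand, which had 1631 and 1884 counts in DMSO and 798 and 760 counts with dBET1, and since the counting is not stated to use strand, reads of the 2 genes cannot be told apart.

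MED14, the scaffold, was at 80.2 and 58.2 CPM in DMSO and at 75.4 and 76.2 CPM with dBET1. The treated libraries lay between the controls, and the log2 change of 0.13 had a 95% interval of -0.20 to 0.46. Without DMSO replicate 2 the value was -0.11.

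In the tail, MED24 and MED15 moved in opposite directions. MED24, which binds activators together with MED16 and MED23, lies at chr17:40019097-40061215 on the minus strand. It was at 230 and 235 CPM in DMSO and at 134 and 151 CPM with dBET1, and the groups did not overlap. The treated level was 61.2% of the control level (log2 change -0.71, SE 0.0830, adjusted p = 0.00028, edgeR's quasi-likelihood test). MED15, a target of lipid and stress transcription factors such as the SREBPs, lies at chr22:20495913-20587632 on the plus strand. It was at 294 and 306 CPM in DMSO and at 373 and 371 CPM with dBET1. The rise of MED15 was 1.24-fold (log2 change 0.31, SE 0.0682, adjusted p = 0.00594, edgeR's quasi-likelihood test), with no overlap between groups, and its call was lost without either dBET1 library. MED16, MED23 and MED25 had log2 changes of 0.10, 0.26 and -0.094 and did not pass the test. MED23, a target of the mitogen-activated factor ELK1, was at 41.5 and 32.2 CPM in DMSO and at 43.1 and 44.9 CPM with dBET1. MED25, which several activation domains bind, was at 61.6 and 69.5 CPM in DMSO and at 62.7 and 60.1 CPM with dBET1, and the sign of its change turned under total-count scaling.

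Per kilobase of exon, the Mediator genes with the highest DMSO level were MED24 at 33.4 CPM per kb, MED15 at 28.9 and MED10 at 24.6, followed by MED1 at 22.6 and MED8 at 21.2. The lowest were MED12L at 0.0162 CPM per kb, MED7 at 0.741, CDK19 at 1.71 and MED17 at 2.52. MED7 and CDK19, which rose past the 2-fold limit, were thus the 2 tested genes with the lowest DMSO level per kilobase. Over the 32 tested genes the Spearman correlation of the log2 change with the DMSO level per kilobase was -0.279. It is given as a description, since the DMSO libraries enter both values. With the longest transcript as the length, MED15 was above MED24, at 63.8 against 59.6 CPM per kb.

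The DMSO libraries differed more from each other than the dBET1 libraries did, over the more abundant genes and over the Mediator genes alike. The median absolute log2 difference between replicates was 0.139 in DMSO and 0.0598 with dBET1 over the tested Mediator genes. Over the 9601 tested genes above a cut on mean level it was 0.143 in DMSO and 0.0720 with dBET1. In DMSO 7 tested genes differed by more than 0.3, and all 7 were higher in replicate 1. These were MED1, MED7, MED13, MED13L, MED14, MED21 and MED23, of which MED21 differed by 0.56. With dBET1 only MED27 differed by more than 0.3. Over the 32 tested genes the log2 difference between the DMSO libraries had a Spearman correlation of 0.484 with the length of the longest transcript, and that between the dBET1 libraries one of -0.49. These are descriptions over genes that share the same 4 libraries. The log2 change itself had a Spearman correlation of 0.336 with that length, and the part of length in the changes was not tested.

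**Figure D4:**
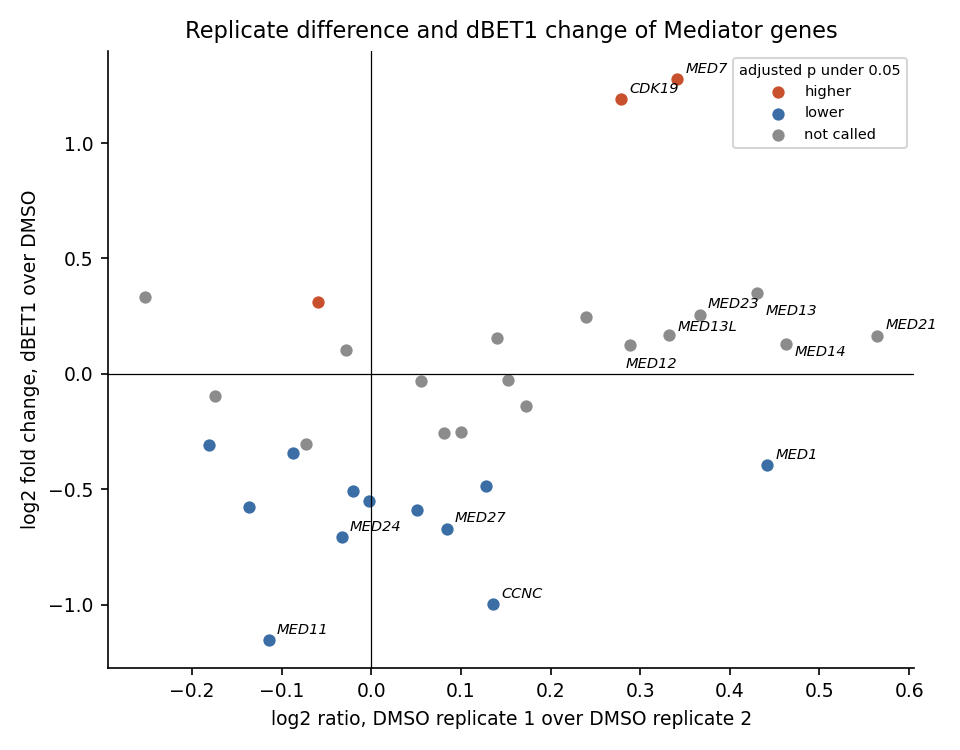
Each tested Mediator gene by the log2 ratio of its 2 DMSO libraries (x axis, replicate 1 over replicate 2) and by its log2 change with dBET1 (y axis); red is higher, blue lower and grey not called at an adjusted p under 0.05. The points at the right edge are MED21 at 0.56 and MED14 at 0.46, neither of which passed the test.

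Promoter sequences from RefSeq (GRCh38.p14) held a window of 250 bases before to 50 bases after the start for 25 of the 33 Mediator genes and for 15842 protein-coding genes in all. The stretches printed here are from the 2 higher and the 2 lower genes with the largest changes that had at least 100 bases before the start free of annotated exons, so that the upstream sequence of genes that moved in opposite directions can be read side by side. They are CDK19 (chr6:110815470-110815570, minus strand, higher), MED15 (chr22:20507360-20507540, plus strand, higher), MED11 (chr17:4731178-4731427, plus strand, lower) and MED27 (chr9:132079868-132080117, minus strand, lower), each 5′ to 3′ with GC boxes on either strand in capitals.
CDK19: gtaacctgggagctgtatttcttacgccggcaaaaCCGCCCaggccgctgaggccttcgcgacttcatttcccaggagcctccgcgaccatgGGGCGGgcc
MED15: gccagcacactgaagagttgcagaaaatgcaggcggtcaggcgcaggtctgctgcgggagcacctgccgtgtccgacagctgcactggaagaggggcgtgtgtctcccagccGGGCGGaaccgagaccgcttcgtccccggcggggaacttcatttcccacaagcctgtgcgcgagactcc
MED11: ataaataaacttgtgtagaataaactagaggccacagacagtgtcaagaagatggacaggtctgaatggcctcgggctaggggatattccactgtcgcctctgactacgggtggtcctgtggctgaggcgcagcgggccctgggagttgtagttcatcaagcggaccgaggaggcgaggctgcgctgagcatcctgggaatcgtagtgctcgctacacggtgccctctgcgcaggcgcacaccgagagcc
MED27: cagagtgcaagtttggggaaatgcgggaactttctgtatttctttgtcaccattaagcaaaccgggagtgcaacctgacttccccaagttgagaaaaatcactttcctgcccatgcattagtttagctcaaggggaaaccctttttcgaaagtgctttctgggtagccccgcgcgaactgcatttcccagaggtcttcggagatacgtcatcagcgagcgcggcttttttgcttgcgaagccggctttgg

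The GC box, searched as GGGCGG or CCGCCC, was in 15 of the 25 windows (60.0%) and in 58.5% of all windows. It was in 3 of the 10 windows of lower genes, those of MED9, MED10 and MED26, and not in that of MED7, so its presence in the 2 higher and absence from the 2 lower printed stretches did not extend to all called genes. The E-box CACGTG, the site of MYC and MAX, was in 2 of the 25 windows, those of CDK8 and MED13L, and in 8.88% of all windows. None of the 10 lower genes with a window held that E-box (0 of 10). The CCAAT box, searched as CCAAT or ATTGG, was in 8 of 25 windows (32.0%) and in 36.4% of all. The ETS core, searched as CCGGAAG or CTTCCGG, was in 7 of 25 windows (28.0%) and in 14.2% of all, and those genes were MED7, MED11, MED15, MED17, MED18, MED29 and MED31. TATAAA or its reverse complement was in the windows of MED7 and MED16 and in 9.63% of all windows. The median GC content was 59.3% over the 25 windows (range 47.0% to 78.3%) and 62.7% over all windows. A match in the window is a description of its letters and not a binding site.

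The factors that Mediator works with were counted from lists of RNA polymerase II subunits, general transcription factors, cohesin and the elongation factors that MED26 recruits. Of 63 tested genes 11 were higher (17.5%, against 28.0% of all tested genes) and 30 lower (47.6%, against 27.6%), with a median log2 change of -0.25. Scaling by total counts only gave 17 higher (27.0%, against 37.3%) and 21 lower (33.3%, against 19.9%). With dBET1 replicate 1 or replicate 2 left out, fewer partner genes were called in each direction, and so were fewer of all tested genes. RNA polymerase II, which Mediator positions at promoters, had 11 of 12 subunit genes lower (91.7%, against 27.6% of all tested genes). Under total-count scaling 10 of the 12 were lower, beside 19.9% of all tested genes. POLR2F had the largest change, from 95.3 and 116 CPM in DMSO to 31.0 and 28.3 CPM with dBET1 (log2 change -1.84, adjusted p = 2.1e-05, edgeR's quasi-likelihood test). POLR2I, POLR2E and POLR2L followed with log2 changes of -1.33, -1.21 and -1.14. POLR2A, the catalytic subunit that carries the C-terminal domain bound by Mediator, was the one that rose, from 596 and 532 CPM to 690 and 656 CPM (log2 change 0.25, adjusted p = 0.027, edgeR's quasi-likelihood test). The POLR2A call was lost with no count filter and without either dBET1 library.

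TFIIH, whose kinase phosphorylates that domain with stimulation by Mediator, had 7 of 10 genes lower (70.0%, against 27.6% of all tested genes). In TFIIH 0 genes were higher (against 28.0%), and the median log2 change was -0.49. Under total-count scaling 4 TFIIH genes were lower, beside 19.9% of all tested genes. With dBET1 replicate 1 or replicate 2 left out, fewer TFIIH genes and fewer of all tested genes were called lower. The largest decreases were in GTF2H2 (-0.996), which has near-identical copies and is uncertain for that reason, GTF2H1 (-0.90), CCNH (-0.60) and GTF2H4 (-0.59). CDK7, the TFIIH kinase, was at 17.0 and 21.3 CPM in DMSO and at 19.2 and 19.1 CPM with dBET1 and did not pass the test. CDK7 was named after its values were seen.

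TFIIA, TFIIB, TFIIE and TFIIF, which assemble with Mediator at the promoter, had 4 of 7 genes lower (57.1%, against 27.6% of all tested genes). In this list 0 genes were higher (against 28.0%). The lower ones were GTF2F2 (-1.09), GTF2E2 (-0.79), GTF2A2 (-0.79) and GTF2F1 (-0.40). TFIID, which recognises the core promoter, had 5 genes higher and 5 lower of 16, or 31.2% each way, near the 28.0% and 27.6% of all tested genes. Under total-count scaling 7 TFIID genes were higher and 3 lower, beside 37.3% and 19.9% of all tested genes. With dBET1 replicate 1 or replicate 2 left out, fewer TFIID genes and fewer of all tested genes were called in each direction. TAF12 rose the most in TFIID, by 1.08 on the log2 scale, and TBP, TAF11 and TAF5 had log2 changes of -0.69, -0.55 and -0.52. Cohesin and its loader, known to occupy enhancers and promoters together with Mediator, had 2 genes higher and 3 lower of 8 (25.0% and 37.5%). Under total-count scaling 3 genes of cohesin and its loader were higher and 1 lower, beside 37.3% and 19.9% of all tested genes. Without either dBET1 library, fewer of them and fewer of all tested genes were called lower. More of them were called lower without DMSO replicate 2, where the lower share of all tested genes hardly changed. The loader genes NIPBL and MAU2 were the higher ones (0.49 each), and STAG1 (-0.69), WAPL (-0.41) and SMC1A (-0.33) were the lower ones. The elongation factors that work with MED26 had 3 genes higher, AFF4 (0.71), AFF1 (0.36) and ZC3H8 (0.27), and 0 lower of 10, a share of 30.0% higher near the 28.0% of all tested genes. With no count filter 1 of these elongation genes was higher, beside 10.4% of all tested genes, and with total counts only 5 were, beside 37.3%. Without DMSO replicate 2 and without either dBET1 library, fewer of these elongation genes and fewer of all tested genes were called higher. Some elongation genes were called lower without DMSO replicate 2, a share below that of all tested genes.

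**Figure D5:**
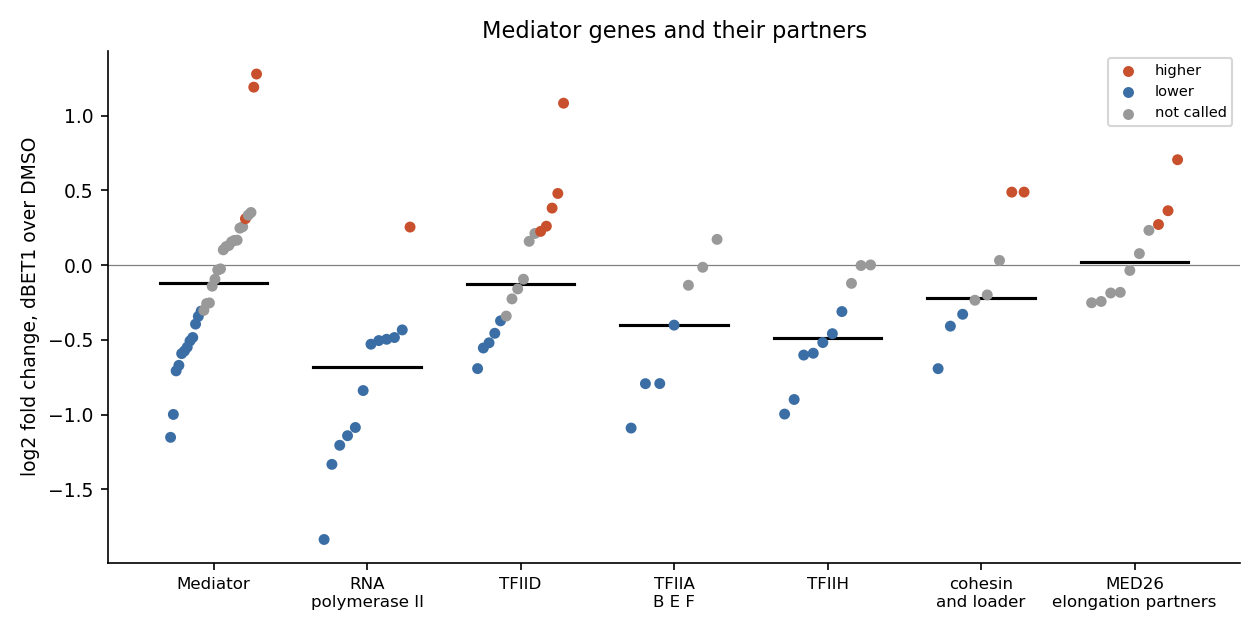
Log2 change with dBET1 of each tested gene of Mediator and of the partner lists, with a horizontal bar at each list's median; red is higher, blue lower and grey not called at an adjusted p under 0.05. The median is -0.12 for Mediator and -0.68 for RNA polymerase II. In RNA polymerase II 11 of 12 genes are blue (91.7%, against 27.6% of all tested genes). Under total-count scaling the Mediator median turns to 0.092, beside 0.257 over all tested genes.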

How the data were processed

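RNA of cells labelled NB4 was sequenced as paired-end reads in 4 libraries, 2 per group, and no source used here ties the 2 libraries of a group to separate cultures, so p-values measure only the spread between these libraries. Reads were aligned to hg38 by the authors using HISAT2 2.2.0 (per the labels), followed by StringTie, and the deposited values are raw counts for each gene, not normalized. The counting step, its strand setting and the annotation release are not given in the sources used here, so overlapping genes can share counts, and counts divided by 2 were tried in case read pairs were counted 2 times. All columns matched a sample (0 left over), and 0 rows lacked a gene name. Symbols came from GENCODE 44, which holds 56105 of the 64252 identifiers.

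Counts were analysed with edgeR 4.0.16 in R 4.3.3: filterByExpr, TMM factors, the quasi-likelihood test with the group alone, and Benjamini-Hochberg adjustment over 17971 genes at 0.05. The biological coefficient of variation was 0.123. CPM used library sizes times TMM factors. The fit was tested on simulated counts in which few genes changed, as many up as down. Such counts cannot check the TMM factors for data in which many genes change. Differences between replicates exceeded counting error, with a chi-square per degree of freedom of 23.6 in the DMSO pair and 8.14 in the dBET1 pair.

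All Mediator genes are named, with up to 4 called genes of largest change from each partner list and others where a count was 5 or fewer. Members and lists were chosen with earlier results of these data known. NARG2, an older name of ICE2, has no entry of its own. DESeq2 1.42.0, DESeq2 size factors within edgeR, total counts only, a fit without the count filter, one of genes with 10 or more counts in each library, protein-coding genes only, the replicate number as a block, halved counts and each library left out were tried as alternatives. Shares between related genes used union exon lengths or the longest transcript and exact permutation tests. Promoters were searched with Python 3.11.15.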

Additional observations from a re-analysis of the deposited data

How the results depend on the processing

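Of the 15 called Mediator genes, 8 kept their call and direction in all 12 alternative fits, namely CCNC, CDK19, MED4, MED7, MED8, MED11, MED24 and MED26, with log2 changes of -1.10 to -0.79 for CCNC, 1.03 to 1.40 for CDK19, 1.09 to 1.49 for MED7 and -1.24 to -0.94 for MED11. Higher Mediator genes numbered 3 as reported, 11 with total counts only, 5 with at least 10 counts in every sample, 7 with protein-coding genes only and 2 to 10 with 1 library left out, and lower ones 12 as reported, 7 with total counts only and 6 to 14 with 1 library left out. Past both thresholds, 1 gene was lower as reported (3.12%, against 8.54% of all tested genes). The number was 2 with DESeq2, with its size factors and with no count filter, and 0 with total counts only. It also varied with 1 library left out, CCNC lying at the limit. The share of all tested genes past both thresholds was taken for the reported fit only. The median log2 change of -0.12 became 0.092 with total counts only, -0.047 with at least 10 counts in every sample, -0.041 with protein-coding genes only and -0.19 to -0.11 with 1 library left out. Over all tested genes the median was 0.048 as reported and 0.257 with total counts only. It was 0.0186 with at least 10 counts in every sample and 0.0281 with protein-coding genes only. Higher partner genes numbered 11 as reported (17.5%, against 28.0%) and 17 with total counts only (27.0%, against 37.3%). With no count filter they numbered 5 (7.94%, against 10.4%), and their count also varied with 1 library left out.

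Signs turned as follows. With total counts only, the median of MED27 to MED30 was 0.068, MED20 0.18, MED28 0.18, MED25 0.12 and CDK8 0.068. With at least 10 counts in every sample, MED20 was 0.038 and MED28 0.046, with protein-coding genes only 0.044 and 0.052, and with halved counts 0.0019 and 0.010. With 1 library left out, MED28 ran from -0.13 to 0.027, positive without DMSO replicate 1, while MED14 (the scaffold median likewise) ran from -0.11 to 0.36, MED21 from -0.12 to 0.45, MED12 from -0.044 to 0.25 and MED13L from -0.020 to 0.32, these negative without DMSO replicate 2, as was the kinase median at -0.032. With MED27 to MED30 counted with it, the tail median was -0.025. The CDK19 share difference was 14.5 points with the longest transcript. The causes were not tested.

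With the replicate number as a block, 4 Mediator genes were higher (12.5%, against 27.7% of all tested genes). In that fit 12 were lower (37.5%, against 27.2%). The added higher gene was MED13. The labels do not say that numbers pair libraries, and same-numbered differences correlated at 0.0398 over the 9601 more abundant genes. Where 1 library was left out, the lone one was assumed to vary like the other group. With 2 libraries per group, single outlying samples were not tested, and MED12L was too low for a test.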
